A study of Mus musculus with 7 samples.

Results

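The genes described here assemble triglyceride or bring fatty acids into the cell: the acyltransferase genes Gpam, Agpat2, Mogat1, Dgat1 and Dgat2, the phosphatidate phosphatase genes Lpin1 and Lpin2, and Pparg, Cd36 and Fabp4, which belong to fatty acid uptake and storage. These 10 genes were picked by symbol from 37620 Ensembl genes in a count table of mouse liver. All 10 were detected in every library and passed the filter on low counts, which kept 15249 genes. RNA sequencing was done on whole liver of C57BL/6 mice after 30 weeks on a Western diet, with 4 libraries of the group H-TBA, named for high total bile acids, and 3 of the group L-TBA, named for low ones. All 7 livers shared the strain and the diet, and the labels name no allele or drug by which the groups differ. They give no sex, age, bile acid value or housing. Whether every library stands for 1 animal is not stated either, and p-values here rest on the spread among these libraries, which may be technical. The design sets H-TBA against L-TBA livers on 1 diet, one that fattens the liver.

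Triglyceride is built on glycerol-3-phosphate. A glycerol-3-phosphate acyltransferase adds the first fatty acid, a 1-acylglycerol-3-phosphate acyltransferase adds the next to give phosphatidate, a lipin removes the phosphate, and a diacylglycerol acyltransferase adds the last fatty acid. A side route starts from monoacylglycerol and uses the enzyme encoded by Mogat1. In fatty liver, hepatocytes switch on the nuclear receptor PPAR-gamma, encoded by Pparg and otherwise best known from fat cells, together with targets such as the fatty acid translocase gene Cd36 and Mogat1.

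Libraries held between 9996990 and 12152613 counts. On the first principal component of all tested genes, which held 64.7% of the variance, H-TBA 1 lay at -10.7, between H-TBA 2 to 4 (-43.5 to -34.6) and L-TBA (36.8 to 45.2). Of all 15249 genes, 2003 (13.1%) passed in H-TBA as higher and 1635 (10.7%) as lower (edgeR quasi-likelihood test, Benjamini-Hochberg adjusted p under 0.05). The count of lower genes was 1035 without L-TBA replicate 1. Scaling by library totals in place of TMM gave 3117 higher and 832 lower genes and put the median log2 fold change of all genes at 0.16, against 0.00 with TMM. Levels below are TMM-scaled CPM (counts scaled to a common library size), and each fold change divides H-TBA by L-TBA.

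The PPAR-gamma and uptake genes Pparg and Cd36, the acyltransferase genes Mogat1, Dgat2 and Gpam, and no others of the 10, fell in H-TBA livers. Dgat1 rose, and Agpat2, Lpin1, Lpin2 and Fabp4 did not pass the test. The largest fall among the 10 was that of Mogat1, to 2.63 ± 0.839 CPM in H-TBA (SD, n = 4), against 9.15 ± 1.50 CPM in L-TBA (SD, n = 3). Thus 5 of the 10 genes were lower, where 10.7% of all tested genes were, and 1 of the 10 was higher, where 13.1% were. Their median log2 fold change was -0.38, beside 0.00 over all tested genes. H-TBA and L-TBA libraries were fully separated for 6 of the 10 genes on the lower side and for 1 on the higher side, where 16.3% and 17.2% of all tested genes were separated in this way. In whole liver, fewer cells of a type and less RNA per cell cannot be told apart.

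**Figure D1:**
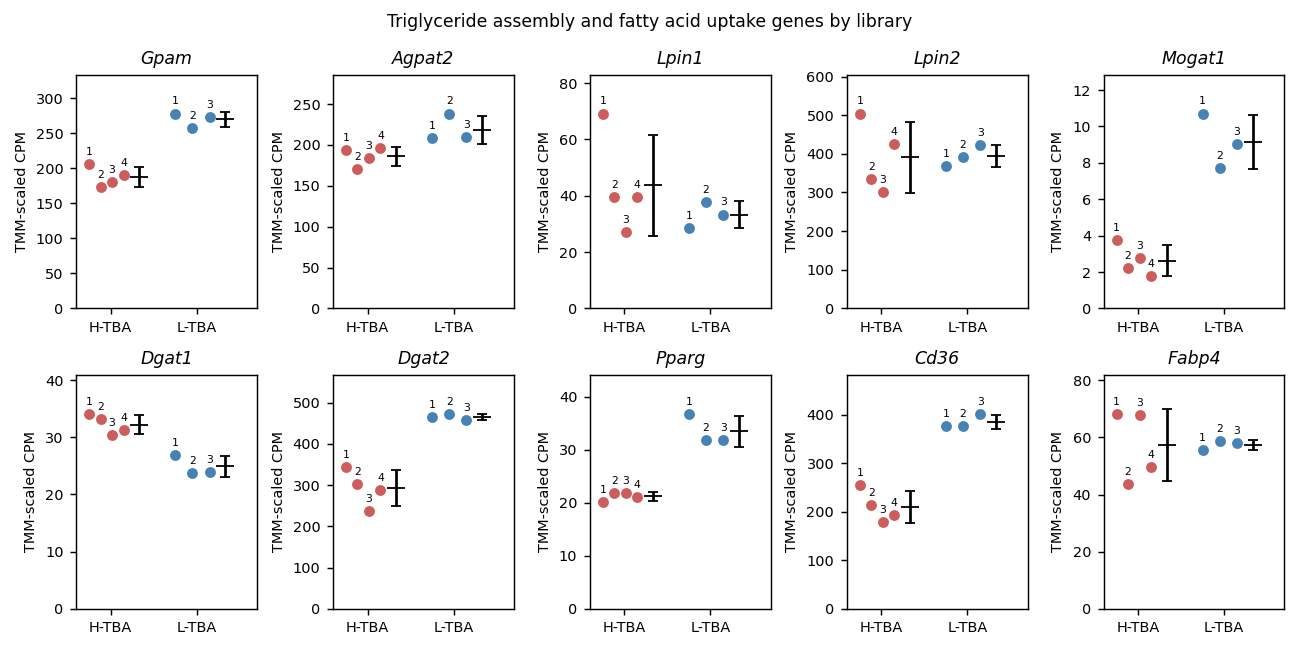
TMM-scaled CPM (vertical axes, each from 0) of the 10 genes in the 4 H-TBA libraries (red) and the 3 L-TBA libraries (blue); digits are replicate numbers and black bars are the mean ± SD. For Gpam, Agpat2, Mogat1, Dgat2, Pparg and Cd36 every H-TBA library lay below every L-TBA library, for Dgat1 every H-TBA library lay above, and Lpin1, Lpin2 and Fabp4 overlapped.

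Gpam encodes the mitochondrial glycerol-3-phosphate acyltransferase that commits fatty acids to glycerolipid. It had 206, 173, 181 and 190.1 CPM in H-TBA 1 to 4, against 278, 258 and 273 CPM in L-TBA 1 to 3. The highest H-TBA library, H-TBA 1, stayed below the lowest L-TBA library. Gpam (ENSMUSG00000024978) changed by -0.52 ± 0.09 (SE) on the log2 scale (edgeR adjusted p = 0.00198), and its fold change ran from -0.57 to -0.49 when single libraries were left out.

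Its paralogs moved apart. Gpat4, which encodes an acyltransferase of the endoplasmic reticulum for the same reaction, averaged 299 ± 27.5 CPM in H-TBA and 220.2 ± 17.9 CPM in L-TBA, a log2 fold change of 0.44 ± 0.10 (edgeR adjusted p = 0.0098). That call was lost without L-TBA replicate 1 (adjusted p = 0.0528) and with the replicate block (adjusted p = 0.095), in a range from 0.000436 to 0.095 over 15 alternatives. Gpat3, another enzyme of the endoplasmic reticulum, fell to 28.4 ± 3.89 CPM in H-TBA, against 43.6 ± 6.90 CPM in L-TBA (log2 fold change -0.62 ± 0.13). In each library the counts of Gpam were divided by those of Gpat4. This ratio was 0.678, 0.584, 0.681 and 0.573 in H-TBA 1 to 4, against 1.31, 1.24 and 1.13 in L-TBA 1 to 3. Gpam counts were thus below Gpat4 counts in all 4 H-TBA libraries and above them in all 3 L-TBA libraries. The log2 ratio was lower by 0.97 on average in H-TBA (exact two-sided permutation p = 0.0571, the smallest that the 35 splits of 7 libraries allow, and 0.0762 adjusted over 4 such ratios).

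Levels of different genes were compared per kilobase of the longest coding transcript in GENCODE. On that scale Gpam made up 32.0 ± 1.58% of the summed level of the 4 glycerol-3-phosphate acyltransferase genes in H-TBA, against 43.9 ± 0.714% in L-TBA, and Gpat4 made up 57.1 ± 2.58% in H-TBA, against 40.1 ± 2.54% in L-TBA. The sum over the 4 genes was 95.0 ± 6.50 CPM per kb in H-TBA and 99.5 ± 2.95 CPM per kb in L-TBA, with overlapping groups. The make-up of this step therefore differed by more than the spread between libraries, while the sums overlapped between the groups.

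Agpat2 encodes the next acyltransferase, known for lipodystrophy in people who lack it. It had 194, 170.1, 184 and 196 CPM in H-TBA 1 to 4, against 208, 238 and 209 CPM in L-TBA 1 to 3. The groups did not overlap, but the highest H-TBA and the lowest L-TBA library lay close together. The log2 fold change of Agpat2 (ENSMUSG00000026922) was -0.23 ± 0.09 and did not pass (edgeR adjusted p = 0.0865, in a range from 0.0484 to 0.573 over 15 alternatives, with DESeq2 at the low end and library totals at the high end). Exons of Agpat2 overlap those of Egfl7 on the opposite strand (24.8 CPM on average), and since the strand setting of the counting is not given, reads of these genes may not have been told apart. Agpat2 had the highest per-kilobase level of the 5 genes of its step, at 66.3 ± 1.47% of their sum in H-TBA and 69.1 ± 1.85% in L-TBA. Agpat4, a minor member of the step in liver, rose to 4.72 ± 1.09 CPM in H-TBA, against 1.84 ± 0.819 CPM in L-TBA (log2 fold change 1.37 ± 0.30), and Agpat3, at -0.14 ± 0.10, did not pass (edgeR adjusted p = 0.315).

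The lipins dephosphorylate phosphatidate and, in the nucleus, act as coregulators of fat metabolism. Lpin1, which encodes the lipin induced by fasting and glucocorticoids, had 69.2, 39.5, 27.0 and 39.5 CPM in H-TBA 1 to 4, against 28.4, 38.0 and 33.4 CPM in L-TBA 1 to 3. Lpin2, the main lipin gene of liver, had 504, 334, 301 and 427 CPM in H-TBA 1 to 4, against 368, 393 and 424 CPM in L-TBA 1 to 3. Both genes were highest in H-TBA 1 and lowest in H-TBA 3, and their groups overlapped. Pck1 encodes the gluconeogenic phosphoenolpyruvate carboxykinase and also responds to fasting. Among the H-TBA libraries it was likewise highest in H-TBA 1 (3473 CPM) and lowest in H-TBA 3 (2331 CPM). Pck1 is a chosen example, and genes of the lists below differed in this. Klf15 and Angptl4 had the same highest and lowest H-TBA library. Fgf21 was highest in H-TBA 3 (18.4 CPM), Ppargc1a was highest in H-TBA 2 (18.2 CPM), and Pdk4 was lowest in H-TBA 2 (18.5 CPM). The part of fasting state in these values was not tested.

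Neither lipin passed. Lpin1 (ENSMUSG00000020593) had a log2 fold change of 0.39 ± 0.25 (edgeR adjusted p = 0.283), which was 0.09 without H-TBA replicate 1 (adjusted p = 0.707, in a range from 0.0815 to 0.707 over 15 alternatives). Lpin2 (ENSMUSG00000024052) had -0.01 ± 0.16 (edgeR adjusted p = 0.965), with a sign that turned under several alternatives. Lpin3, at -0.09 ± 0.13, did not pass either (adjusted p = 0.679). The ratio of Lpin2 to Lpin1 counts was between 7.28 and 11.1 in H-TBA and between 10.3 and 13.0 in L-TBA, and its log2 difference of -0.36 had an exact two-sided permutation p of 0.171. Per kilobase, Lpin2 made up 87.3 ± 1.50% of the 3 lipin genes in H-TBA and 89.2 ± 1.07% in L-TBA.

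Mogat1 encodes the monoacylglycerol acyltransferase that appears in fatty mouse liver. It had 40, 23, 34 and 22 raw counts in H-TBA 1 to 4, against 124, 86 and 90 in L-TBA 1 to 3, which is 3.74, 2.25, 2.76 and 1.78 CPM in H-TBA, against 10.7, 7.72 and 9.02 CPM in L-TBA. Every H-TBA library lay at less than the lowest L-TBA level, with H-TBA 1 nearest to it. Mogat1 (ENSMUSG00000012187) had a log2 fold change of -1.80 ± 0.23 with an edgeR adjusted p of 0.000516, and it ranked 111 from the lowest among the 15249 fold changes. It ran from -2.01 to -1.64 when single libraries were left out, and the call held in all 15 alternatives. Exons of Mogat1 overlap those of BC035947 on the opposite strand, a gene at 0.556 CPM on average. The paralog Mogat2, better known from intestine, had 1.19 ± 0.297 CPM in H-TBA and 0.982 ± 0.154 CPM in L-TBA and did not pass (log2 fold change 0.27 ± 0.32, edgeR adjusted p = 0.579). Summed per kilobase, both genes reached 2.81 ± 0.653 CPM per kb in H-TBA and 8.001 ± 1.28 CPM per kb in L-TBA, and Mogat2 made up between 14.7% and 32.4% of the sum in H-TBA, against 6.26% to 7.78% in L-TBA.

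The diacylglycerol acyltransferase genes moved in opposite directions. Their proteins catalyse the same last step and are unrelated in sequence, DGAT2 being tied more to newly made fatty acids and DGAT1 more to re-esterification. Dgat2 had 343, 303, 236 and 287 CPM in H-TBA 1 to 4, against 466, 473 and 458 CPM in L-TBA 1 to 3. All H-TBA libraries lay below all L-TBA libraries, which stood close together. The log2 fold change of Dgat2 (ENSMUSG00000030747) was -0.67 ± 0.12 (edgeR adjusted p = 0.00246), between -0.76 and -0.58 with single libraries left out.

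Dgat1 had 34.1, 33.1, 30.3 and 31.3 CPM in H-TBA 1 to 4, against 26.9, 23.8 and 23.9 CPM in L-TBA 1 to 3. Here all H-TBA libraries lay above all L-TBA libraries. The log2 fold change of Dgat1 (ENSMUSG00000022555) was 0.37 ± 0.09 (edgeR adjusted p = 0.0106). Leaving out L-TBA replicate 2 or 3 ended the call (adjusted p = 0.0518 and 0.0513, with log2 fold changes of 0.34 in both), in a range from 0.0024 to 0.0518 over 15 alternatives.

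There were 10.1, 9.14, 7.78 and 9.18 Dgat2 counts per Dgat1 count in H-TBA 1 to 4, against 17.3, 19.9 and 19.1 in L-TBA 1 to 3. The ratio was lower in every H-TBA library than in any L-TBA library, by 1.06 on the log2 scale (exact two-sided permutation p = 0.0571, the smallest possible here). Per kilobase, Dgat1 made up 11.8 ± 1.13% of both genes' level in H-TBA, against 6.02 ± 0.413% in L-TBA, while their sum was 146 ± 20.4 CPM per kb in H-TBA and 219 ± 3.45 CPM per kb in L-TBA. The log2 count ratio of Mogat1 to Dgat2 was lower by 1.15 in H-TBA, again with no overlap between the groups (exact two-sided permutation p = 0.0571, 0.0762 adjusted over the 4 ratios).

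**Figure D2:**
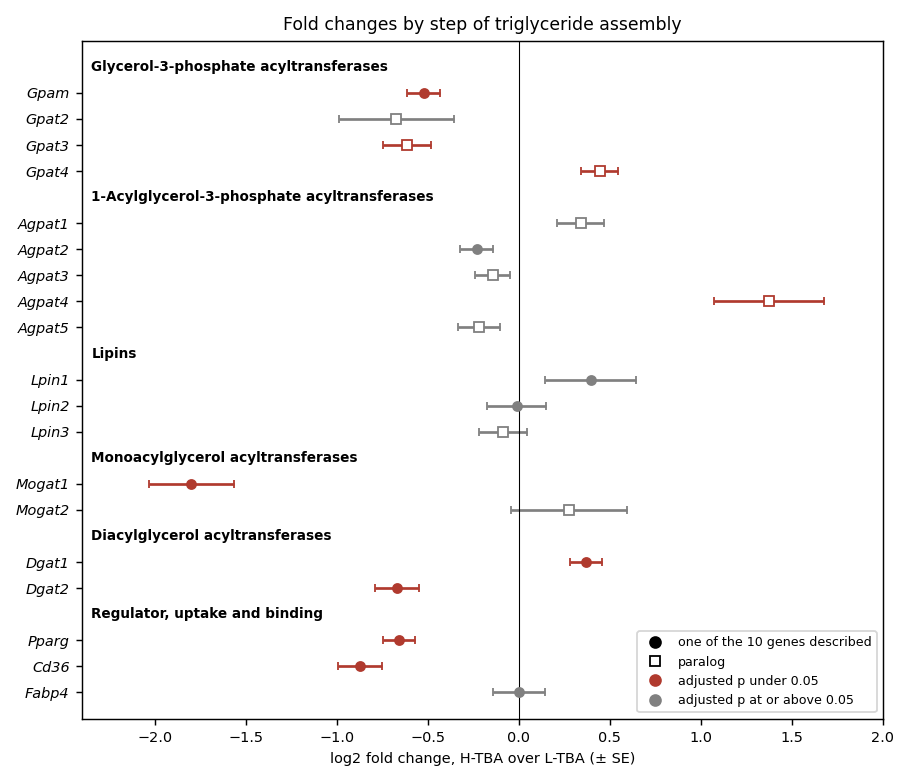
Log2 fold change of H-TBA over L-TBA (horizontal axis, bars are SE) for the 10 genes (filled circles) and their paralogs (open squares), grouped by step; red marks an edgeR adjusted p under 0.05. Within the first step Gpam and Gpat3 lie left of 0 and Gpat4 right of it, and within the last step Dgat2 lies left and Dgat1 right.

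**Figure D3:**
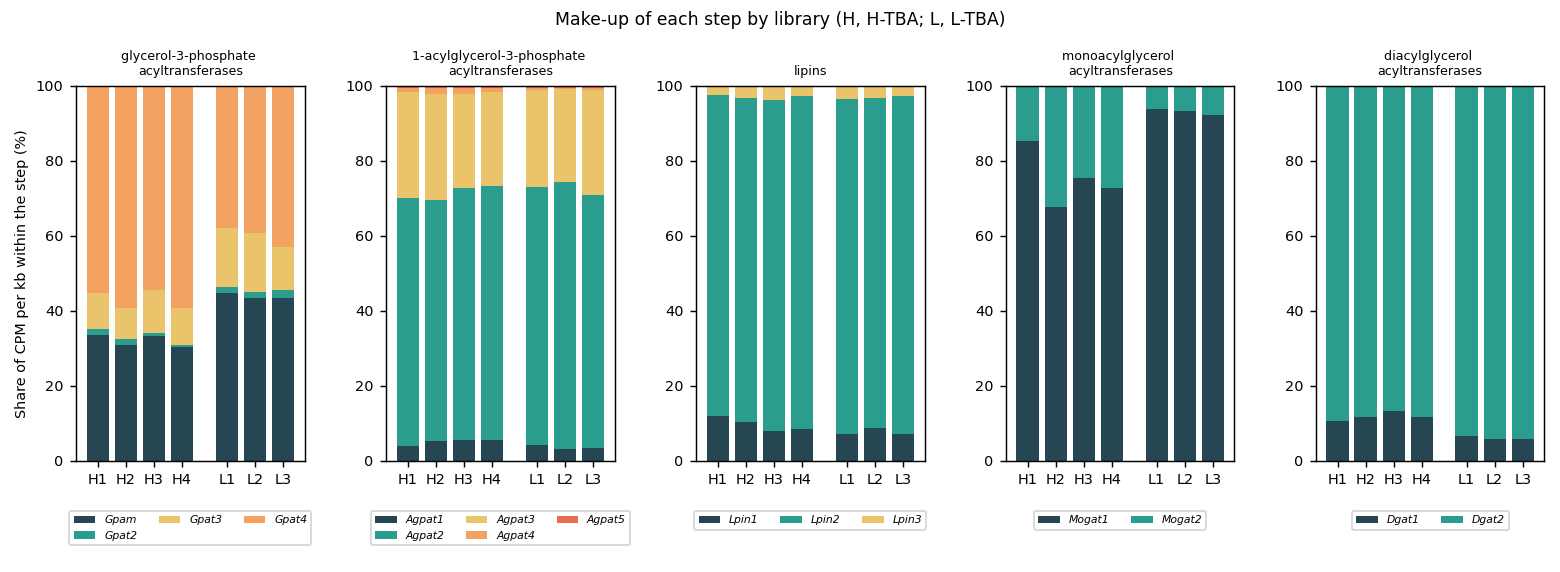
Share of each gene in the summed CPM per kb of its step (vertical axis, percent, from 0 to 100) in each library, with the H-TBA libraries left of the L-TBA libraries. Gpat4 takes 54.4% to 59.3% of the first step in H-TBA and 38.1% to 42.9% in L-TBA, and Dgat1 takes 10.6% to 13.3% of the last step in H-TBA and 5.68% to 6.48% in L-TBA.

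Pparg had 20.2, 21.8, 21.8 and 21.0 CPM in H-TBA 1 to 4, against 36.8, 31.8 and 31.9 CPM in L-TBA 1 to 3. The H-TBA libraries stood close together and all lay below the L-TBA libraries, and H-TBA 1, nearest to L-TBA among the H-TBA libraries for the other 4 genes that fell, was here the lowest. The log2 fold change of Pparg (ENSMUSG00000000440) was -0.66 ± 0.09 (edgeR adjusted p = 0.000602), between -0.70 and -0.59 with single libraries left out. Counts per gene do not separate the transcripts of this gene that start at different promoters.

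Cd36, the fatty acid translocase gene and a PPAR-gamma target, had 255, 214, 179 and 193 CPM in H-TBA 1 to 4, against 377, 378 and 402 CPM in L-TBA 1 to 3. The gap between the groups was wider than the range within either. Cd36 (ENSMUSG00000002944) had a log2 fold change of -0.87 ± 0.12 (edgeR adjusted p = 0.000644), between -0.98 and -0.80 with single libraries left out. Fabp4, which encodes the fatty acid binding protein of fat cells, macrophages and capillary endothelium and is a standard PPAR-gamma target, had 68.3, 43.7, 68.0 and 49.8 CPM in H-TBA 1 to 4, against 55.5, 58.8 and 58.1 CPM in L-TBA 1 to 3. The H-TBA libraries lay on both sides of the L-TBA libraries, with an SD of 12.6 CPM in H-TBA and 1.71 CPM in L-TBA. For Fabp4 (ENSMUSG00000062515) the log2 fold change was 0.00 ± 0.14 (edgeR adjusted p = 1.0), and its sign turned under several alternatives.

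Per kilobase, the order in H-TBA was Dgat2 (129 ± 19.6 CPM per kb), Agpat2 (125 ± 7.91), Lpin2 (69.4 ± 16.3), Fabp4 (64.1 ± 14.1), Cd36 (61.9 ± 9.80), Gpam (30.4 ± 2.32), Dgat1 (17.1 ± 0.904), Pparg (9.98 ± 0.362), Lpin1 (7.85 ± 3.21) and Mogat1 (2.14 ± 0.683). In L-TBA it was Dgat2 (206 ± 3.32 CPM per kb), Agpat2 (147 ± 11.5), Cd36 (113 ± 4.29), Lpin2 (70.0 ± 4.93), Fabp4 (64.1 ± 1.91), Gpam (43.7 ± 1.72), Pparg (15.8 ± 1.35), Dgat1 (13.2 ± 0.946), Mogat1 (7.45 ± 1.22) and Lpin1 (5.96 ± 0.855). In H-TBA the intervals of mean ± SD overlapped between Dgat2 and Agpat2, among Lpin2, Fabp4 and Cd36, and between Pparg and Lpin1. In L-TBA they overlapped between Lpin2 and Fabp4 and between Mogat1 and Lpin1. Dgat1 stood above Pparg in H-TBA and below it in L-TBA. The order depends on the length used, most of all for Fabp4 and Lpin2. Per kilobase of the union of all annotated exons, a length tried after seeing the data, Fabp4 was at 12.8 ± 2.81 CPM per kb in H-TBA and 12.8 ± 0.38 CPM per kb in L-TBA, below Gpam (28.1 ± 2.15 in H-TBA, 40.4 ± 1.60 in L-TBA). On that scale Cd36 (58.6 ± 9.28 in H-TBA, 107 ± 4.06 in L-TBA) stood above Lpin2 (32.0 ± 7.54 in H-TBA, 32.3 ± 2.27 in L-TBA), and in L-TBA above Agpat2 (103 ± 8.04), with overlapping intervals. Dgat1 and Pparg again changed places between the groups.

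The stretches before the starts of the genes that fell are shown because these genes share a direction. RefSeq promoters on GRCm38.p6 were at hand for 7 of the 10 genes: Gpam, Agpat2, Lpin1, Lpin2, Mogat1, Pparg and Cd36. Below are the 250 bases before the annotated start for 4 genes that fell, 5′ to 3′ on the strand of the gene, with the start farthest upstream where the table holds several. Capitals mark every match, on either strand, to the nuclear receptor hexamer AGGTCA, the GC box GGGCGG and the CCAAT box.
Mogat1 (chr1:78510810-78511059, plus strand): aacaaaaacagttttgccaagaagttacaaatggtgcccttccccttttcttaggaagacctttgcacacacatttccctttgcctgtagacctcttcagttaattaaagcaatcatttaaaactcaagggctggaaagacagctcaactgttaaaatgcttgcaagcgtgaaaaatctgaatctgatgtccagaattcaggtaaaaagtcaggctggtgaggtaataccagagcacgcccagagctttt
Cd36 (chr5:17835897-17836146, minus strand): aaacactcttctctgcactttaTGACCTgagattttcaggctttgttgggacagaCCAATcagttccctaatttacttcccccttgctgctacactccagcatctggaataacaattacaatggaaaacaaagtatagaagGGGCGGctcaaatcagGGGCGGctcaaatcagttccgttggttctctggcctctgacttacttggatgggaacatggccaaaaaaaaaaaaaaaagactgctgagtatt
Pparg (chr6:115360894-115361143, plus strand): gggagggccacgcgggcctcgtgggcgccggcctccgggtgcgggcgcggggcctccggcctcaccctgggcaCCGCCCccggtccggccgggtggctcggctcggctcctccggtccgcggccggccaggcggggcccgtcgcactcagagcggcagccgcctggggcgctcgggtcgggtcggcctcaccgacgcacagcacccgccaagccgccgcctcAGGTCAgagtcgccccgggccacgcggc
Gpam (chr19:55127239-55127488, minus strand): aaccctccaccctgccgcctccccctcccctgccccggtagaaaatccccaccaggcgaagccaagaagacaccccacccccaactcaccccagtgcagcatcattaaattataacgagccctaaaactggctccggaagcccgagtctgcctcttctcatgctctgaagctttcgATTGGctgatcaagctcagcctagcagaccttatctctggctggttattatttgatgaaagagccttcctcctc

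These 4 stretches differed in base composition: G and C made up 41.2% of the bases for Mogat1, 43.2% for Cd36, 82.4% for Pparg and 54.8% for Gpam, beside a median of 52.4% over 32851 promoters of the same length. The Mogat1 stretch held no match to any motif searched. The Cd36 stretch held AGGTCA on the reverse strand, starting 228 bases before the start of transcription, a CCAAT box at 195 and GC boxes at 109 and 93. The Pparg stretch held AGGTCA at 28 and a GC box at 177, and the Gpam stretch a CCAAT box at 74. Other starts of these genes differed. Of the 3 Pparg starts, the one farthest downstream held no AGGTCA and no GC box, but 2 CCAAT boxes. The other Gpam start held AGGTCA at 196 and a GC box at 16, and no CCAAT box. Over all 12 annotated starts of the 7 genes, AGGTCA was found at 5 starts, of Cd36, Pparg, Lpin1 and Gpam, and it was found in 14.0% of all promoters. The direct repeat AGGTCANAGGTCA, the classic form of a PPAR site, which itself contains AGGTCA, was found at none of the 12 and in 0.0335% of all promoters. GC boxes were found at 7 of the 12 starts and CCAAT boxes at 5, against 32.7% and 33.8% of all promoters. TATAAA and the E-box CACGTG were found at 1 start each, in Pparg and Lpin2, against 12.4% and 6.02% of all promoters. Genes that fell and genes that did not pass both held AGGTCA, and a match is a description of letters, not of binding.

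Other genes of glycerolipid synthesis moved both ways. Of 17 tested genes in that list 3 rose and 4 fell, beside 13.1% and 10.7% of all genes, with a median log2 fold change of -0.01, and library totals gave 5 higher and 4 lower. Besides Gpat3, Gpat4 and Agpat4, the glycerol kinase gene Gk fell (-0.52 ± 0.10, edgeR adjusted p = 0.0033), and Plpp1, which encodes a membrane lipid phosphate phosphatase, rose (0.88 ± 0.19, edgeR adjusted p = 0.00606). Gpd1, Plpp3 and Gpat3 made up the other falls.

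Among 26 tested carriers, activating enzymes and binding proteins of fatty acids, 6 rose and 8 fell, beside 13.1% and 10.7% of all genes. Their median log2 fold change was -0.28, and 13 fell without H-TBA replicate 1. The carrier gene Slc27a1, better known from muscle and fat, rose to 50.7 ± 7.56 CPM in H-TBA, against 22.6 ± 1.52 CPM in L-TBA (log2 fold change 1.16 ± 0.12), opposite to Cd36. The main hepatocyte carrier genes Slc27a2 and Slc27a5 were at -0.27 ± 0.13 and -0.28 ± 0.11 and did not pass (edgeR adjusted p = 0.148 and 0.086). Slc27a2 passed without H-TBA replicate 1, and Slc27a5 passed there and with DESeq2 and limma-voom. The liver fatty acid binding protein gene Fabp1 fell to 1091 ± 259 CPM in H-TBA, against 2383 ± 175 CPM in L-TBA (-1.13 ± 0.16), while Fabp5 did not pass, at 0.16 ± 0.18 (adjusted p = 0.564). The caveolin genes Cav1 and Cav2, abundant in endothelium and fat cells, rose by 1.65 ± 0.16 and 1.38 ± 0.16, and the macrophage scavenger receptor gene Msr1 fell, at -1.18 ± 0.11.

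Fat storage genes known as PPAR-gamma targets had 3 higher and 11 lower of 20 tested, beside 13.1% and 10.7% of all genes. Their median was -0.49. The lipid droplet genes Cidea, Plin4 and Fitm2 fell, at -4.43 ± 0.42, -1.24 ± 0.18 and -0.61 ± 0.10 on the log2 scale. Lpl and Pck1, also targets in fat cells, rose, at 0.67 ± 0.09 and 1.36 ± 0.18. Fabp4 itself was not in this list, and the targets thus did not all move with Pparg. The related receptor gene Ppara also fell, at -1.09 ± 0.16, and the part of either receptor in these values was not tested.

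A list of PPAR-gamma partners, coregulators and adipogenic factors also held other receptors and regulators. It had 5 higher and 4 lower of 26 tested, beside 13.1% and 10.7% of all genes, with a median of -0.06. The count that rose was 3 when H-TBA replicate 1, H-TBA replicate 4 or L-TBA replicate 3 was left out, and 2 when L-TBA replicate 1 was. It was 1 with the replicate block. With library totals 7 were higher and 3 lower. Of the partner receptor genes, Rxrg fell narrowly (edgeR adjusted p = 0.0497), and Rxra and Rxrb did not pass. No coregulator gene of the Ncoa, Ncor or Ppargc1 families in the list passed in the edgeR fit. The related receptor genes differed in direction: Ppara fell by 1.09 ± 0.16 and Ppard rose by 0.67 ± 0.16 (edgeR adjusted p = 0.00094 and 0.00932). The Ppard call was lost with the replicate block (0.57, adjusted p = 0.0519, in a range from 0.00236 to 0.0519 over 15 alternatives), so the contrast in direction rests on fits without it. The glucose-responsive regulator gene Mlxipl fell by 0.76 ± 0.14 and the hormone gene Fgf21 by 0.92 ± 0.13, while Prdm16, a regulator of brown fat, rose by 1.96 ± 0.31 to 6.50 ± 0.983 CPM in H-TBA, against 1.65 ± 0.908 CPM in L-TBA.

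A list of genes that load triglyceride into lipoproteins or hydrolyse it also held the chaperone gene Pdia4. It had 1 higher and 9 lower of 17 tested, beside 13.1% and 10.7% of all genes. The median of the list was -0.36. Leaving out L-TBA replicate 1 brought the count of lower genes to 4, as did the replicate block, and with library totals 2 were higher and 6 lower. The rise, that of the lipase gene Pnpla2, was lost without H-TBA replicate 2 or 4 or any 1 L-TBA replicate, with no filter on low counts and with the replicate block. The monoacylglycerol lipase gene Mgll, whose product removes the substrate of the enzyme that Mogat1 encodes, fell by 1.05 ± 0.14 to 231 ± 49.6 CPM in H-TBA, against 477 ± 29.0 CPM in L-TBA. The acid lipase gene Lipa, the esterase gene Ces1f, the chaperone gene Pdia4 and the lipoprotein lipidation gene Cideb fell as well, at -0.64, -1.08, -0.71 and -0.39 on the log2 scale. The Cideb call was lost without L-TBA replicate 1 (adjusted p = 0.0505), with library totals (adjusted p = 0.0552) and with the replicate block (adjusted p = 0.0714), in a range from 0.000115 to 0.0714. The lipoprotein genes Mttp and Apob fell too, at -0.36 and -0.40 (edgeR adjusted p = 0.0333 and 0.0346). Neither passed at 0.01.

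Pparg, Cd36 and Fabp4 are also expressed outside hepatocytes, so markers of other cell types are given beside them. The calls in each list stand beside 13.1% of all tested genes higher and 10.7% lower. The summed level of 12 macrophage and Kupffer cell markers was 774 to 916 CPM in H-TBA and 985 to 1361 CPM in L-TBA, with 0 higher and 3 lower (Cd5l, Clec4f and Adgre1). The other 9 did not pass. Cd5l alone had 68.2 to 122 CPM in H-TBA and 201 to 303 CPM in L-TBA. Vsig4 and Marco were highest in L-TBA 3, at 53.7 and 20.2 CPM, and their groups overlapped. The lower sum thus does not stand for every marker. The summed level of 10 markers of lipid-associated macrophages was 2180.5 to 2849 CPM in H-TBA and 1579 to 1931 CPM in L-TBA. Of these, 3 were higher (Spp1, Lpl and Cd9) and 2 lower (Mmp12 and Lgals3), and Trem2 and Gpnmb did not pass (edgeR adjusted p = 0.506 and 0.323). Spp1, also a bile duct gene, made up 24.5% to 50.9% of this sum. It had 786 to 1451.5 CPM in H-TBA and 386 to 622 CPM in L-TBA. Lpl had 445 to 496 CPM in H-TBA and 290 to 308 CPM in L-TBA. Ctsd, another large part of the sum, overlapped, at 529 to 614 CPM in H-TBA and 582 to 621 CPM in L-TBA. The higher sum in H-TBA therefore cannot be read as a rise of the list as a whole. Vascular endothelial markers summed to 163 to 237 CPM in H-TBA and 154 to 212 CPM in L-TBA, with 4 higher and 1 lower of 11 tested. Cd34, Emcn, Sox17 and Cldn5 rose, by 1.82, 1.45, 1.06 and 0.86 on the log2 scale, and Plvap fell, at -0.70. Aqp1, a large part of the sum, did not pass, at 57.8 to 73.4 CPM in H-TBA and 55.1 to 70.0 CPM in L-TBA. The overlap of the sums thus does not mean that single markers were unchanged. Bile duct markers summed to 1091 to 2057 CPM in H-TBA and 499 to 780 CPM in L-TBA, with 12 of 12 higher. Spp1 made up 70.2% to 72.9% of that sum in H-TBA and 77.5% to 81.6% in L-TBA, and without it, a sum added after seeing the data, the list summed to 305 to 606 CPM in H-TBA and 112 to 158 CPM in L-TBA. The adipocyte list summed to 286 to 528 CPM in H-TBA and 1121 to 1658 CPM in L-TBA, with 0 higher and 4 lower of 6 tested, and 63.4% to 89.0% of that sum came from Car3, which hepatocytes also express. Of the defining adipocyte genes, Lep had 0 counts in all 7 libraries and Adipoq and Plin1 had at most 1 count in any. Hepatocyte markers summed to 67047 to 75260 CPM in H-TBA and 72660 to 81173 CPM in L-TBA. Alb alone had 35078 to 39611 CPM in H-TBA and 37838 to 45911 CPM in L-TBA. Of 11 tested, 2 were higher (Cps1 and Ahsg) and 2 lower (Apoa2 and Ttr). The part of macrophages, endothelium and bile duct cells in the values of Pparg, Cd36 and Fabp4 was not tested.

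**Figure D4:**
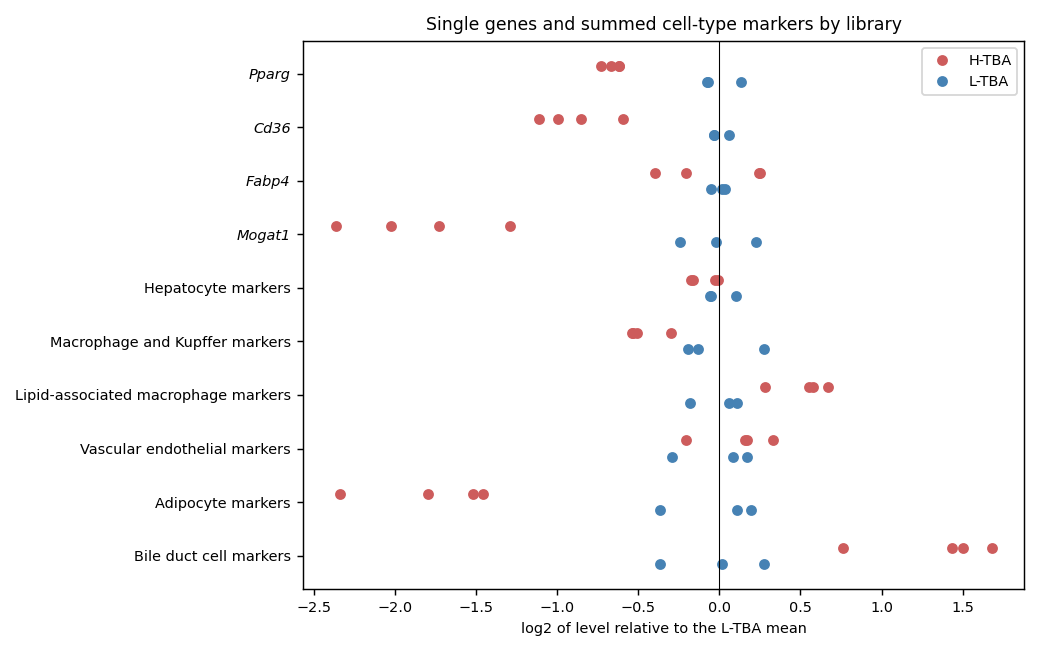
Log2 level relative to the L-TBA mean (horizontal axis) of Pparg, Cd36, Fabp4 and Mogat1 and of 6 summed marker lists, with a point per library (H-TBA red and above, L-TBA blue). Pparg, Cd36 and Mogat1 lie left of all L-TBA libraries, and Fabp4 lies on both sides. The sum of macrophage markers (774 to 916 CPM in H-TBA, with 3 of 12 markers called lower) lies to the left. Bile duct markers (1091 to 2057 CPM in H-TBA, of which Spp1 is 70.2% to 72.9%) lie to the right. The sum of lipid-associated macrophage markers (2180.5 to 2849 CPM in H-TBA) also lies to the right. Spp1 is 24.5% to 50.9% of it over all libraries, and Mmp12 and Lgals3 of this list fell. The adipocyte list (286 to 528 CPM in H-TBA, mostly Car3) lies to the left. The sums of hepatocyte and of endothelial markers overlap, although single markers in both lists passed.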

How the data were processed

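RNA sequencing of flash frozen liver, extracted with Trizol, was deposited by the authors as unnormalized whole counts per Ensembl gene. CASAVA, TopHat2 2.0.11, DESeq2 1.18.1 and build mm9 appear, with no role, in the submitters' processing notes. No source used here gives the counter, its strand setting or its annotation. Symbols came from GENCODE for 32897 of 37620 identifiers.

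H-TBA (n = 4) was compared with L-TBA (n = 3) with edgeR 4.0.16 in R 4.3.3: filterByExpr (minimum count 10, minimum total count 15), TMM, a quasi-likelihood test on group alone, and p-values adjusted over 15249 genes by Benjamini-Hochberg at 0.05. The SE was derived from the fold change and the F statistic. The fit was tested on simulated data. Alternatives used DESeq2 1.42.0, limma-voom (limma 3.58.1) with sample quality weights, other scalings, filters and thresholds, a block on replicate number, a robust fit, and each library left out. Transcript lengths came from GENCODE vM21 on GRCm38, another build than mm9, and the shares within each step, chosen after seeing the data, rest on them. Exact permutation tests used scipy 1.17.1; figures were drawn with matplotlib 3.10.9.

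The 10 genes and the lists were chosen with earlier results of these data known. All 10 genes were described. Of each list, the 5 genes with the smallest adjusted p and 8 paralogs or carriers were named. Further genes were named to account for small counts, for genes that did not pass or for what made up a sum. Others were named for the calls in a list or for the order of libraries. No library repeated another of its group (chi-square per degree of freedom at least 5.29).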

Additional observations from a re-analysis of the deposited data

Results flagged for a closer look

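In a check of the 41 named genes for a library standing apart among the 4 H-TBA libraries, 3 genes had one, and in each it was H-TBA 1. Lpl had 444.9 CPM in H-TBA 1, below the other H-TBA libraries. Mgll had 304.5 CPM there and Fabp1 1477 CPM, above the other H-TBA libraries. In all 3 genes H-TBA 1 was the H-TBA library nearest to L-TBA. Chance flags about 1 in 20 groups. None of the 10 triglyceride assembly and uptake genes was among the 3.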

How the results depend on the processing

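Mogat1, Dgat2, Gpam, Pparg and Cd36 were called lower in all 15 alternatives in which the fit was changed or a library left out, and at an adjusted p of 0.01. The count of higher genes among the 10, which is Dgat1 alone, was 0 at that threshold and ran from 0 to 1 with single libraries left out, at 0 without L-TBA replicate 2 or 3. Over all genes, library totals gave 3117 higher and 832 lower, the threshold of 0.01 gave 1126 and 749, and leaving out single libraries gave 1470 to 2429 higher and 1035 to 2123 lower. Replicate numbers did not pair the libraries (correlations of deviations of -0.10, -0.06 and -0.06); with the replicate number as a block over 3 pairs, which drops H-TBA replicate 4, 1124 genes were higher and 749 lower, with 5 of the 10 genes lower and 1 higher. Signs that turned were those of uncalled genes near 0. With library totals Lpin2 was at 0.14, Fabp4 at 0.16, Agpat3 at 0.0087 and Lpin3 at 0.066. Fabp4 was at 0.039 with the replicate block. With single libraries left out, Lpin2 ran from -0.16 to 0.10, Fabp4 from -0.092 to 0.11 and Fabp5 from -0.024 to 0.27. Settings of the fit do not enter the log2 count ratios. With exon union lengths in place of transcript lengths, an alternative chosen after seeing the data, Gpam made up 34.3% of its step in H-TBA and 46.2% in L-TBA, and Dgat2 89.9% of its own in H-TBA and 94.9% in L-TBA. Counts of 22 to 124 for Mogat1 limit the precision of its level, and the SDs hold counting error as well as the spread between libraries.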
